A study of Bos taurus with 81 samples.

Results

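H3K27ac, acetylation of lysine 27 on histone H3, was compared between 8-cell cattle embryos grown with α-amanitin (8A) and 8-cell embryos grown without it (8C). The comparison used 4 of the 81 libraries of the series, 2 of 8A and 2 of 8C. The assay was CUT&Tag, in which transposase held by an antibody cuts and tags the DNA around a histone mark. The embryos were of Bos taurus, fertilised in vitro from slaughterhouse oocytes, and both groups were collected at 56 h after insemination. For 8A the culture contained α-amanitin at 50 μg/ml, and the time of its addition is not given in the sources used here. Their classes of sites were then followed in untreated germinal vesicle oocytes (GV), 2-cell (2C, 32 h), 4-cell (4C, 44 h) and morula (MO, 122 h) libraries, in blastocysts (BL, 172 h) with their inner cell mass (ICM) and trophectoderm (TE), and in the H3K4me3, H3K27me3 and H3K9me3 lists of the same stages. About 500 oocytes or 1000 to 1500 pooled blastomeres went into each library. The labels do not say whether replicate libraries came from separate collections, so their spread may be technical.

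H3K27ac is laid down by the acetyltransferases CBP and p300 at active promoters and enhancers, and it turns over quickly. H3K4me3, which is written by COMPASS-family methyltransferases, marks promoters. H3K27me3 is the Polycomb mark and H3K9me3 the mark of constitutive heterochromatin. In cattle the major activation of the embryonic genome falls around the 8-cell stage, and α-amanitin blocks it by binding RNA polymerase II. The comparison therefore asks which 8-cell acetylation is present when embryonic transcription is blocked, and where.

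One peak list per library was at hand, called by the authors. The autosomes, 1 to 29, were cut into 2488055 bins of 1 kb, and a bin was called marked in a list where peaks covered at least 50% of it. A kept bin was marked in all 4 lists. An 8C-only bin was marked in both 8C lists and in neither 8A list, and an 8A-only bin the other way round. These classes contained 24587 kept, 28296 8C-only and 30574 8A-only bins, which are 0.988%, 1.14% and 1.23% of all autosomal bins. A list records where the mark was called, so fewer embryos or cells with the mark and less mark per cell cannot be told apart. No read totals come with the lists, and depth is unknown.

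The 4 lists were similar in covered length but not in the number and width of their peaks. On the autosomes, the 8A lists held 145582 and 107635 peaks and the 8C lists 80815 and 84007. Median peak width was 550 bp and 750 bp in 8A and 900 bp and 850 bp in 8C. The 8A lists held more and narrower peaks, with no overlap between the groups. The first 8A list stood apart from the other 3 in both measures. It also had the highest score floor, the 1st percentile of the authors' peak score per 200 bp of peak, with 12.0 against 8.75 in the second 8A list and 8.43 and 8.44 in 8C. The meaning of that score was not established, and its part in the widths was not tested.

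Covered length was 101 Mb and 97.7 Mb in 8A and 90.5 Mb and 89.7 Mb in 8C. The means were 99.2 Mb ± 2.11 (SD, n = 2) and 90.1 Mb ± 0.587 (SD, n = 2), a log2 ratio of 0.14. The 2 groups did not overlap in covered length. With 2 libraries against 2, the exact two-sided permutation p cannot go below 0.33, which this ratio gave. The same limit holds for each 8A to 8C difference below, so differences are read against the spread of the 2 libraries of each group. In number of marked bins the groups did overlap, with 95807 and 102684 bins in 8A and 96613 and 95485 in 8C.

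Similar totals covered different places. The 2 libraries of 8A shared 66056 marked bins, 68.9% and 64.3% of each list, and those of 8C shared 63768, 66.0% and 66.8% of each. A library of 8A and one of 8C shared 37202 to 38518 bins, which was 37.3% to 39.1% of the 8A list and 38.5% to 40.3% of the 8C list. The 4 pairs across the treatment lay within a narrow range, well under both replicate pairs.

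Of the 63768 bins marked in both 8C lists, 38.6% were also marked in both 8A lists, 44.4% in neither and 17.1% in one. Of the 66056 bins marked in both 8A lists, 37.2% were marked in both 8C lists, 46.3% in neither and 16.5% in one. The split was nearly the same from either side. A further 121405 bins carried the mark in 1 to 3 lists in another pattern, 59.3% of the 204862 bins marked anywhere. Most of these were marked in a single library, with 25638 bins in the second 8A list alone as the largest such group.

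**Figure D1:**
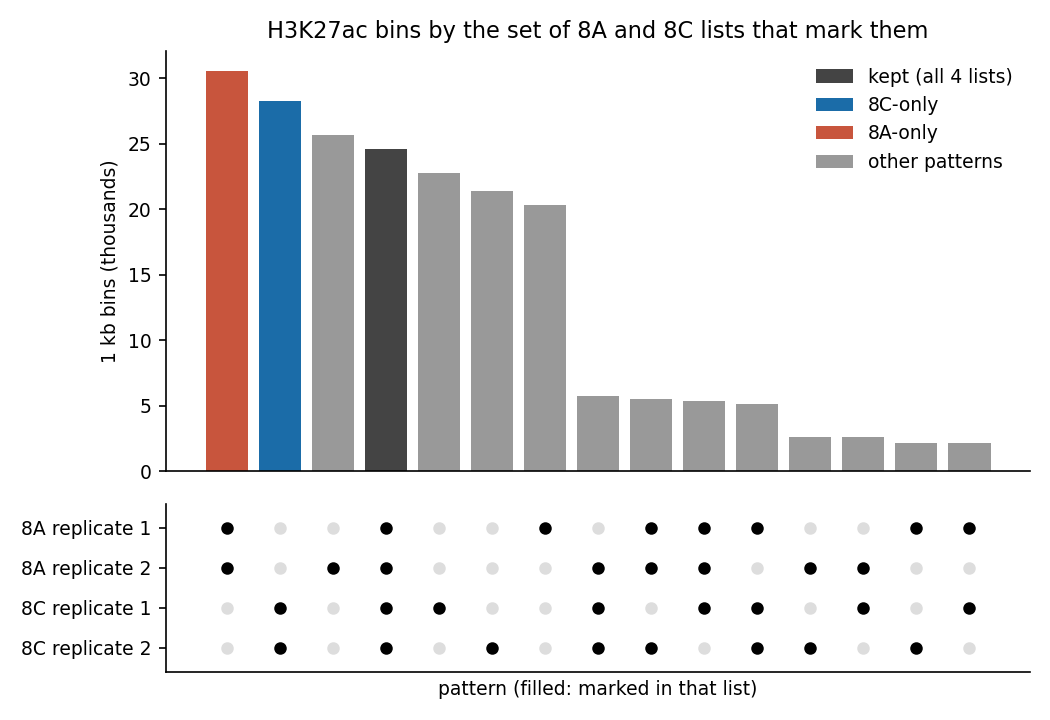
Number of autosomal 1 kb bins (in units of 1000 on the vertical axis) for each combination of the 4 H3K27ac lists. A black dot below a bar means that the bin was marked in that list. The 8A-only (30574), 8C-only (28296) and kept (24587) patterns are 3 of the 4 tallest bars, and the other patterns with libraries of both groups hold 2147 to 5758 bins.

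Bins of the classes were mostly clear of the threshold, more so for 8A-only bins. In 26604 of the 30574 8A-only bins (87.0%) neither 8C list had a single covered base. Among 8C-only bins this was so for 18982 of 28296 (67.1%) and the 8A lists, and 32.9% had some 8A coverage below the limit. Among bins marked in both 8C lists, 1958 had a highest 8A coverage of 450 bp and fell just inside the 8C-only class, and 2355 had 500 bp and fell just outside it. For 8A-only bins the corresponding numbers were 790 and 1162. Which of the classes is larger was not settled. Trimmed to one covered length, the lists gave 29085 8C-only and 28010 8A-only bins, and bins of 5 kb gave 4329 and 3085. Outside the last 5 Mb of each autosome there were 27339 8C-only and 22489 8A-only bins. When a base of coverage was enough to mark a bin, the counts were 39353 and 67598. A class drawn from 1 library of a group in place of 2 was larger: leaving out 8C replicate 1 gave 49683 8C-only bins and leaving out 8C replicate 2 gave 51040, and the 8A-only count was 56212 without 8A replicate 1 and 50894 without 8A replicate 2.

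Adjacent bins of one class were joined into runs. There were 16925 kept runs, 21151 8C-only runs and 23123 8A-only runs, and 72.3%, 77.9% and 79.5% of them were a single bin. The longest runs measured 22 kb, 16 kb and 29 kb. The 8C-only bins often lay beside retained acetylation. A kept bin was the direct neighbour of 14.4% of them and within 5 kb of 34.6%, against 2.28% and 6.27% of all bins, counting a kept bin itself. For 8A-only bins these values were 5.18% and 17.3%. The 8A-only and 8C-only bins seldom lay close together. An 8A-only bin lay within 5 kb of 2.75% of the 8C-only bins, against 7.99% of all bins, counting an 8A-only bin itself. At 1 to 5 kb from an 8A-only bin lay 6.76% of all bins. At longer range the 8A-only and 8C-only bins were no farther apart than all bins. The median distance to an 8A-only bin was 93 kb for 8C-only and 117 kb for all bins. More than 50 kb away were 65.6% and 67.0% of them.

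At sites acetylated in both conditions, the 8C libraries had the wider peaks. A kept site was a run of kept bins, and its width in a list was that of the widest peak touching it. Over the 16925 kept sites, the median width was 1100 bp and 1200 bp in the 8A libraries and 1450 bp and 1400 bp in the 8C libraries. The groups did not overlap, and the log2 ratio of 8A to 8C was -0.31 (exact two-sided permutation test, p = 0.33, the smallest possible). A width of 2 kb or more was reached by 13.1% and 16.5% of the sites in 8A and by 30.9% and 29.04% in 8C. For 5 kb or more the counts were 91 and 124 sites in 8A and 558 and 463 in 8C. Both 8C widths exceeded both 8A widths at 7402 sites, 43.7% of those compared, and the reverse held at 2100 sites, 12.4%. The widths overlapped at the other 43.9%.

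Both 8C libraries had the wider median at sites with and without H3K4me3. At the 10210 kept sites with a bin marked by H3K4me3 in both 8C lists, median widths were 1300 bp and 1400 bp in 8A and 1700 bp and 1600 bp in 8C. At the 4167 kept sites with no H3K4me3 in either 8C list, they were 800 bp and 900 bp in 8A and 1150 bp in each 8C library. Sites already acetylated at the 4-cell stage differed less. The median over sites of the log2 width ratio was -0.20 at the 5640 kept sites with H3K27ac in both 4C lists and -0.46 at the 6087 with it in neither. Both 8C peaks were the wider ones at 38.5% of the former and 48.1% of the latter. All peaks of the 8A lists were also narrower, as given above. Relative to the median of all peaks in its own list, the kept site median was 2.00 and 1.60 times as wide in 8A and 1.61 and 1.65 times in 8C. The width ratio moved to -0.19 without 8C replicate 1, with fewer lists then needed for a kept bin, and to -0.46 without 8A replicate 2.

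**Figure D2:**
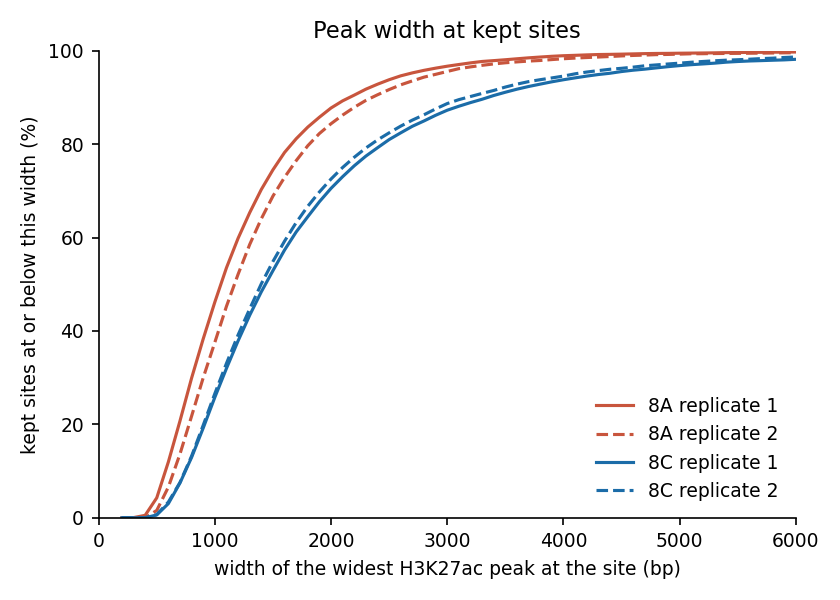
Cumulative share of the 16925 kept sites (%, vertical axis) against the width of the widest H3K27ac peak at the site (bp, horizontal axis), one line per library. Both 8A lines lie to the left of both 8C lines, with medians of 1100 bp and 1200 bp against 1450 bp and 1400 bp.

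H3K4me3 came from separate libraries that had no part in defining the classes. It was common at kept bins, common at 8A-only bins and scarce at 8C-only bins. In the 8C libraries it marked 63.4% and 76.4% of kept bins, 43.6% and 64.6% of 8A-only bins, and 11.8% and 17.1% of 8C-only bins. Both 8C lists marked 62.2%, 42.1% and 10.3% of these classes, against 2.54% of all bins. The 2 H3K4me3 lists of 8C differed in extent, and the 8A-only value rested on the smaller one. It was 64.6% without H3K4me3 8C replicate 1, and the 8C-only value was then 17.1%. The order of the classes was the same in each of the 2 libraries.

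The 12859 8A-only bins with H3K4me3 in both 8C lists were, as members of their class, marked by H3K27ac in neither 8C list. Whether they lie at promoters was not tested, since no annotation of the build was at hand. Of the 12859 bins, 80.8% had H3K4me3 in both GV lists, 89.0% in both 4C lists and 68.7% in both 8A lists. In both MO lists 26.5% had it. The 23029 8C-only bins without H3K4me3 in either 8C list, made up 81.4% of the class. Of these, 0.473% had H3K4me3 in both 4C lists, and 3.98% had it in both MO lists. The 2904 8C-only bins with H3K4me3 in both 8C lists had it at 4C in 36.4%, in 8A in 19.0% and at MO in 66.9%.

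In the 8A libraries H3K4me3 was called at fewer bins than in the 8C libraries, with 1.54% of all bins in both lists. Near the far chromosome ends the groups overlapped in covered length. In the last 5 Mb H3K4me3 covered 18.8 Mb and 16.4 Mb in 8A and 17.7 Mb and 28.5 Mb in 8C. Over all autosomes the 8A libraries marked 51.3% and 47.1% of kept bins, 43.3% and 38.8% of 8A-only bins, and 4.16% and 3.13% of 8C-only bins. Both 8A lists marked 2.09% of 8C-only bins, against 3.61% when the class was drawn without H3K27ac 8A replicate 1 and to 3.42% without replicate 2. Each class and the genome as a whole had lower values in both 8A than in both 8C libraries (exact two-sided permutation test, p = 0.33 in each). The mean over all bins was 3.74% in 8C and 2.17% in 8A. The means of the kept class were 69.9% and 49.2%, those of the 8A-only class 54.1% and 41.0%, and those of the 8C-only class 14.4% and 3.65%. For 8A-only bins the lower 8C library, at 43.6%, was barely above the higher 8A library, at 43.3%. The difference of their means, -13.0 percentage points, was within the SD of the 2 8C libraries, 14.8. The 8C-only class had the largest proportional difference of the 3, and it was also larger than that over all bins. H3K4me3 present in both 8C lists and neither 8A list marked 6.02% of 8C-only, 9.86% of kept and 4.99% of 8A-only bins, with 0.627% over all bins. The opposite change was rare, at 113 8A-only, 14 kept and 5 8C-only bins, with 0.0295% over all bins.

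**Figure D3:**
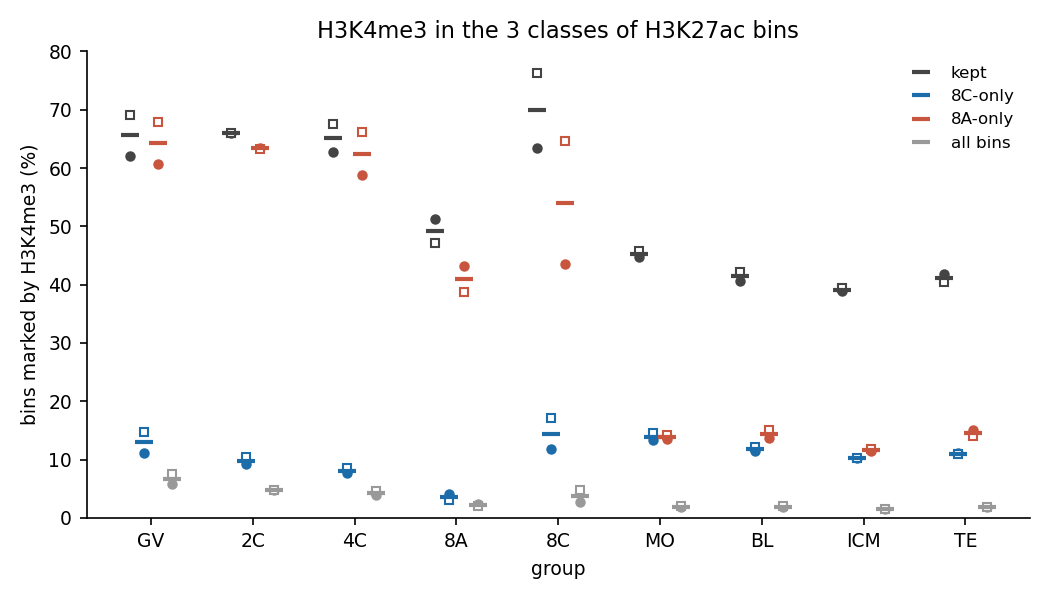
Share of bins marked by H3K4me3 (%, vertical axis) in each group (horizontal axis) for kept, 8C-only, 8A-only and all autosomal bins. Filled circles are replicate 1, open squares replicate 2 and bars their mean. Kept and 8A-only bins lie close, between 58.8% and 69.1% from GV to 4C, and their means lie further apart at 8A and 8C. At MO 8A-only bins (13.8% on average) lie level with 8C-only bins (13.9%).

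Before the 8-cell stage H3K4me3 was nearly as frequent in 8A-only as in kept bins. Both GV lists marked 57.7% of kept and 56.5% of 8A-only bins (all bins 4.79%), both 2C lists 59.2% and 55.1% (all bins 3.44%), and both 4C lists 58.3% and 53.8% (all bins 3.04%). At MO the shares were 43.3% of kept and 12.4% of 8A-only bins (all bins 1.65%). The ranges of the 2 libraries overlapped between the classes at GV and 4C. They did not overlap at 2C, where kept bins had 66.0% and 66.1% and 8A-only bins 63.4% and 63.3%, and they were far apart at MO. Without the last 5 Mb of each autosome the gap before the 8-cell stage was wider, with 57.1% of kept and 51.4% of 8A-only bins at GV, 58.1% and 47.8% at 2C, and 57.2% and 45.8% at 4C (all bins there 4.04%, 2.68% and 2.32%). The 8C-only bins had 8.36% at GV, 6.18% at 2C, 5.05% at 4C and 12.2% at MO.

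H3K27ac at other stages separated the classes in another way. Most 8C-only bins were without H3K27ac in the earlier libraries, though a smaller share of them than of all bins. H3K27ac marked 3.99% and 5.19% of them in the 2C libraries and 2.79% and 3.03% in the 4C libraries, and 1.37% and 0.640% in both lists of each stage. In both lists the values are near those of all bins, 1.20% at 2C and 0.597% at 4C. In single libraries they are above those of all bins, which were 2.34% and 2.91% at 2C and 1.26% and 1.36% at 4C. In GV oocytes the share in both lists was 15.7% (all bins 4.08%). In total 19657 of the 28296 bins, 69.5%, were marked in no GV, 2C or 4C library, against 90.4% of all bins. Another 3220 bins, 11.4%, were marked in both GV lists and in no 2C or 4C library, against 2.50% of all bins.

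The 8A-only bins were acetylated more often than the 8C-only bins at each earlier stage. H3K27ac marked 38.1% and 43.8% of them in the 2C libraries and 23.5% and 25.7% in the 4C libraries. Both lists marked 25.9% at 2C, 12.0% at 4C and 24.5% at GV. At least one GV, 2C or 4C library marked 75.5% of the class, against 9.63% of all bins, and at least one 2C or 4C library 66.4%, against 4.88%. Marked in both 2C lists and in no GV library were 4185 bins, 13.7% of the class, and 0.523% of all bins. There were 7502 8A-only bins, 24.5%, with a mark in no GV, 2C or 4C library. By the stricter measure, 16465 bins, 53.9% of the class, were marked in both lists of none of these stages, against 83.2% of 8C-only, 33.8% of kept and 95.0% of all bins.

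Kept bins had the highest shares at GV and 4C, and 8A-only bins a slightly higher share at 2C. Both lists marked 50.2% of them at GV, 24.5% at 2C and 28.3% at 4C, and at least one library of these stages marked 86.3%. At 2C the kept and 8A-only classes had overlapping library values, 37.7% and 41.0% against 38.1% and 43.8%. At 4C they did not overlap, with 44.0% and 42.4% of kept against 23.5% and 25.7% of 8A-only bins. The 4C peaks had a median width of 450 bp in each library, below the 500 bp that mark a bin. With any covered base, both 4C lists marked 49.5% of kept, 26.8% of 8A-only and 2.51% of 8C-only bins, and the order of the classes was as before. In 5 kb bins the shares were 12.1%, 4.12% and 0.0924%. Without 8A replicate 1 the 8A-only share was 7.16%, without 8A replicate 2 it was 7.96%, and with either 4C library alone it was 23.5% and 25.7%. The 8C-only share was likewise 1.30% without 8A replicate 1, 1.21% without 8A replicate 2, and 2.79% and 3.03% with a single 4C library, and the kept share 44.0% and 42.4%.

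**Figure D4:**
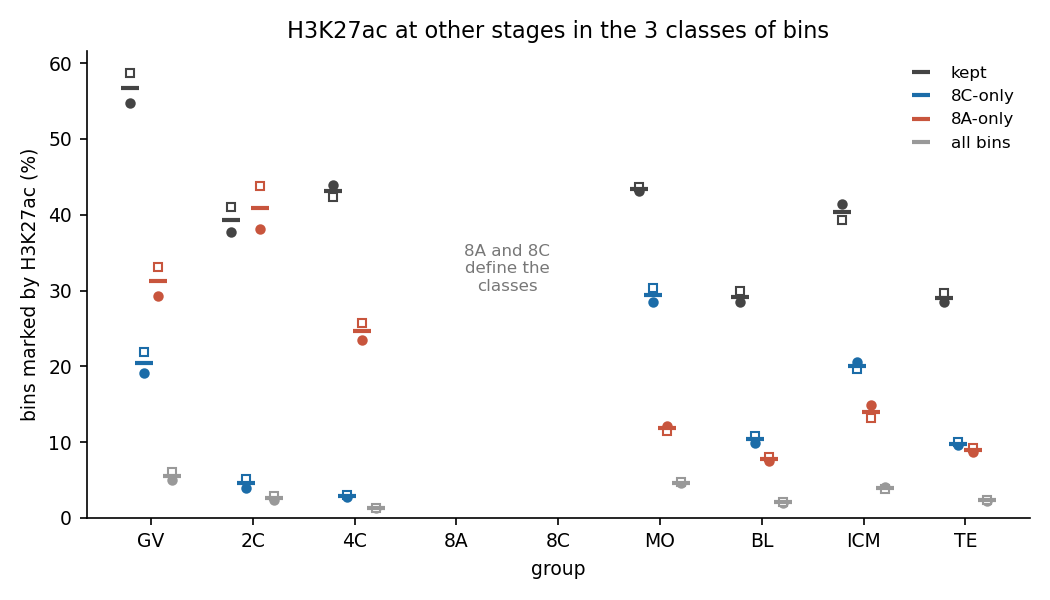
Share of bins marked by H3K27ac (%, vertical axis) at the stages that did not define the classes (horizontal axis), with filled circles for replicate 1, open squares for replicate 2 and bars for their mean. The 8C-only bins stand at 4.59% at 2C, 2.91% at 4C and 29.4% at MO, and the 8A-only bins at 40.9%, 24.6% and 11.8%. All bins stand at 2.62% at 2C, 1.31% at 4C and 4.64% at MO.

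At the morula stage the order of the 2 condition-specific classes was reversed. MO libraries marked 28.5% and 30.4% of 8C-only bins and 12.2% and 11.5% of 8A-only bins. Kept bins were marked in 43.2% and 43.7%. Both MO lists marked 24.5%, 9.28% and 39.0% of the 3 classes, against 3.54% of all bins. Of the 8C-only bins, 65.7% were marked in neither MO library, against 94.3% of all bins. In no GV, 2C, 4C or MO library were 13768 of them marked, 48.7%, against 86.5% of all bins. A further 4134, 14.6%, were marked first at 8C and again in both MO lists. Among 8A-only bins this pattern, absent from GV, 2C and 4C and present in both MO lists, held for 515 bins, 1.68%, with 2.23% over all bins.

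In the blastocyst the classes differed again. Both BL lists had H3K27ac in 26.99% of kept, 8.88% of 8C-only and 6.74% of 8A-only bins (all bins 1.71%), and the libraries of the last 2 classes did not overlap. In the inner cell mass, the source of the embryo proper, the shares were 37.6%, 17.4% and 11.8% (all bins 3.21%). In the trophectoderm, which forms the placenta, they were 26.3%, 8.04% and 7.48% (all bins 1.89%). H3K4me3 in both BL lists marked 39.8%, 10.7% and 13.0% (all bins 1.73%). The 8C-only bins with H3K4me3 in both 8C lists stood out within their class. Of these 2904 bins, 47.3% had H3K27ac in both MO lists, 54.6% in both ICM lists and 29.5% in both TE lists. Among the 23029 8C-only bins with no H3K4me3 at 8C the values were 20.97%, 11.6% and 4.90%. The other classes differed in the same direction. Both ICM lists marked 52.4% of kept bins with H3K4me3 in both 8C lists and 11.0% of those with it in neither. For 8A-only bins these values were 17.8% and 6.82%.

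Open chromatin was measured by ATAC-seq in blastocysts, with 3 libraries a group. All 3 BL libraries were open at 44.0% of kept, 9.53% of 8C-only and 18.7% of 8A-only bins (all bins 2.35%). The shares were 41.7%, 10.6% and 15.9% in ICM (all bins 2.21%) and 40.4%, 8.56% and 16.3% in TE (all bins 2.31%). The 8A-only bins were thus open more often than the 8C-only bins in the stage where they were acetylated less often. With H3K4me3 in both 8C lists, 65.0% of kept, 43.2% of 8C-only and 33.7% of 8A-only bins were open in BL.

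The same comparison was read forward from the 4-cell stage. Of the 14862 bins marked in both 4C lists, 46.9% were kept, 24.6% were 8A-only and 1.22% were 8C-only. Acetylation of the 4-cell embryo that differed between the conditions was thus 3658 bins on the 8A side and 181 on the 8C side. From 2C the figures were 20.2% kept, 26.5% 8A-only and 1.30% 8C-only of 29791 bins. From GV they were 12.2%, 7.39% and 4.39% of 101428 bins. Read back from the morula, 10.9% of its 87957 bins were kept, 7.90% 8C-only and 3.23% 8A-only, and 60.1% were in none of the 4 lists.

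H3K27me3 and H3K9me3 were read in the same bins. Their lists lie on a 200 bp grid with wider peaks, so values are compared between classes and not with the active marks. At the 8-cell stage both marks were less frequent in kept and 8C-only bins than in all bins, and more frequent in 8A-only bins. Without the last 5 Mb of each autosome the 8A-only excess was small in 8C. There both 8C lists of H3K27me3 marked 3.53% of 8A-only and 3.33% of all bins, and those of H3K9me3 4.70% and 4.35%. In both 8A lists the values were 5.29% and 3.61% for H3K27me3, and 6.62% and 4.70% for H3K9me3. H3K27me3 marked 8.79% and 8.24% of 8A-only bins in 8C and 12.0% and 12.3% in 8A. In kept bins it marked 2.76% and 2.67% in 8C and 3.30% and 3.34% in 8A, and in 8C-only bins 1.73% and 1.92% in 8C and 3.45% and 3.57% in 8A. In each class both 8A libraries lay above both 8C libraries, and so they did over all bins, at 5.82% and 6.14% against 5.50% and 5.61% (exact two-sided permutation test, p = 0.33 in each). Both lists marked 4.70% of all bins in 8A and 4.31% in 8C. The 8C-only bins, marked by H3K27ac in neither 8A list, had the largest proportional difference. H3K9me3 was likewise highest in 8A-only bins, and all bins stood at 5.89% in both 8A and 5.42% in both 8C lists. Its means were 13.8% in 8A and 9.76% in 8C for 8A-only bins, 4.14% and 2.82% for kept bins, and 4.71% and 2.99% for 8C-only bins.

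Bins that changed call between both libraries of each group were few for either mark. H3K27me3 marked 294 8C-only bins, 1.04% of the class, in both 8A lists and neither 8C list, against 0.650% of all bins. The opposite pattern held for 28 8C-only bins, 0.0990%, against 0.404% of all bins. Thus among bins marked by H3K27ac only in untreated embryos, 294 were marked by H3K27me3 only under α-amanitin and 28 only without it. Among 8A-only bins the counts were 820 (2.68%) and 166 (0.543%), and among kept bins 144 and 63. For H3K9me3, 278 8C-only, 742 8A-only and 209 kept bins were marked in both 8A lists and neither 8C list (0.663% of all bins), and 28, 98 and 31 in the opposite pattern (0.376% of all bins).

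Outside the cleavage stages the 8A-only bins were H3K27me3 bins to a large extent. Both lists marked 37.9% of them in GV oocytes (all bins 7.28%), 38.6% in MO (all bins 5.26%) and 51.7% in BL (all bins 9.66%). In kept bins the values were 20.6%, 15.8% and 27.2%. In 8C-only bins they were 7.59%, 3.11% and 7.63%, near or below those of all bins. The mark was concentrated in 8A-only bins that carried H3K4me3 in both 8C lists, where 60.2% had H3K27me3 in both MO lists and 67.6% in both BL lists. Kept bins with H3K4me3 in both 8C lists had 21.3% and 31.8%. In 8A-only bins without H3K4me3 in either 8C list the values were 11.4% and 28.0%. H3K9me3 in both BL lists marked 21.7% of 8A-only, 10.2% of kept and 3.16% of 8C-only bins (all bins 3.45%).

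The 8A-only bins were crowded towards one end of the chromosomes. Cattle autosomes have the centromere at one end, and positions count from there. The last 2 Mb, at the far end, held 13.97% of 8A-only bins, 3.97% of kept bins, 1.41% of 8C-only bins and 2.33% of all bins. The first 2 Mb held 2.29%, 2.01%, 1.62% and 2.33%. In the last 5 Mb the H3K27ac lists covered 16.2 Mb and 16.3 Mb in 8A and 5.73 Mb and 5.27 Mb in 8C, a ratio of 2.95. Elsewhere they covered 84.6 Mb and 81.5 Mb in 8A and 84.8 Mb and 84.4 Mb in 8C, where the groups overlapped and the log2 ratio was -0.028 (exact two-sided permutation test, p = 0.667). The excess of covered length in 8A thus lay within the last 5 Mb. That window held 16.1% and 16.6% of the covered length in 8A and 6.33% and 5.88% in 8C. It held 18.7% and 19.2% at 2C, 13.9% in each 4C library, 7.05% and 7.06% at GV and 7.13% and 6.18% at MO. For H3K4me3 it held 31.2% and 31.4% in 8A, 25.8% and 25.3% in 8C, 25.1% and 25.2% at 4C, and 10.2% and 10.0% at MO. The repressive marks were also concentrated there, with overlapping groups. For H3K27me3 it held 25.8% and 25.3% in 8A and 24.8% and 25.3% in 8C, and for H3K9me3 22.9% and 23.4% against 23.1% and 22.2%. By this measure the 8A libraries of H3K27ac lay between those of 2C and 4C, and the 8C libraries of H3K27ac near those of GV and MO.

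Outside the last 5 Mb 22489 8A-only bins remained, fewer than the 27339 8C-only bins there. Of the 8A-only bins there, both lists marked 33.5% with H3K4me3 at 8C, 22.7% with H3K27ac at 2C and 11.5% with H3K27ac at 4C. H3K27me3 marked 26.3% of them in both MO lists and 43.1% in both BL lists. Over all bins of that region the values were 1.97%, 0.994%, 0.528%, 3.52% and 7.93%. The part of base composition or gene density near chromosome ends in these values was not tested, since no genome of the build of the lists was at hand.

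**Figure D5:**
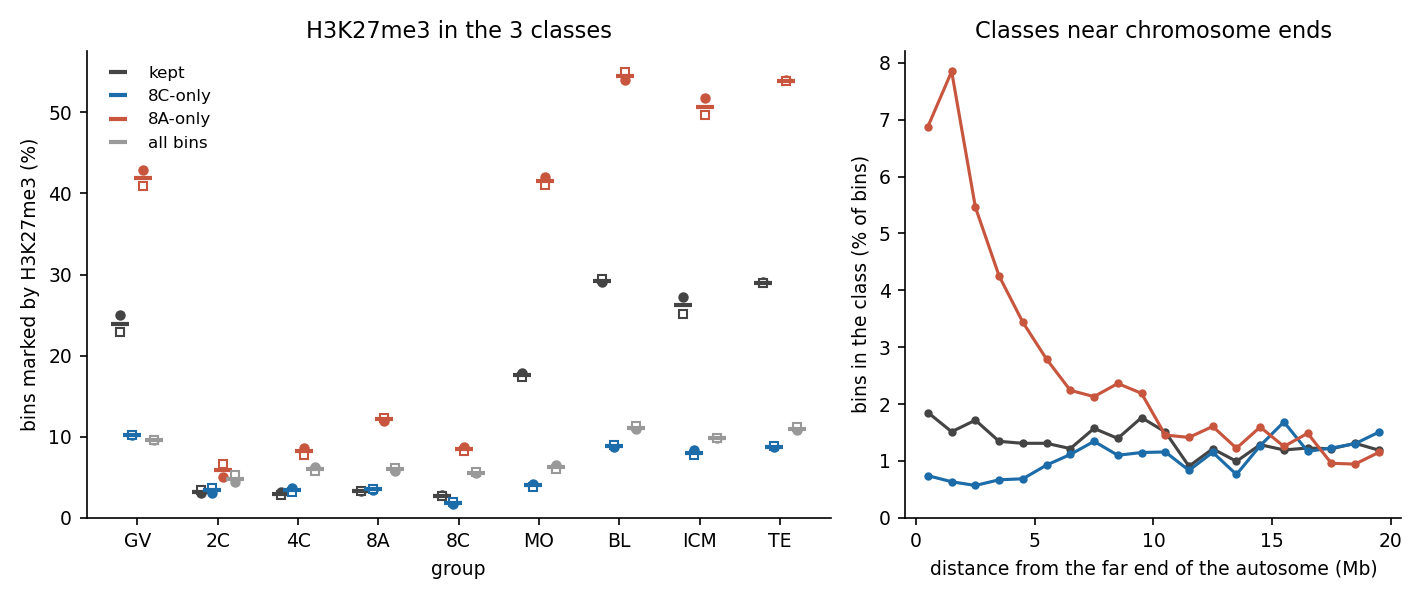
Left, share of bins marked by H3K27me3 (%, vertical axis) in each group (horizontal axis), with filled circles for replicate 1, open squares for replicate 2 and bars for their mean. Right, share of bins that belong to each class (%, vertical axis) against distance from the far end of the autosome (Mb, horizontal axis), pooled over 29 autosomes. H3K27me3 in 8A-only bins averages 42.0% at GV, 8.51% at 8C and 54.5% at BL, and the 8A-only share of bins is 6.88% in the last Mb and 1.15% between 19 and 20 Mb.

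Chromosomes differed in the balance of the classes. More 8A-only than 8C-only bins were found on 16 autosomes and fewer on 13. Chromosome 24 had the highest share of 8A-only bins among its marked bins (21.7%) and the lowest share of 8C-only bins (8.35%) and of kept bins (9.36%). Chromosome 3 was at the other extreme, with 9.99% 8A-only and 19.4% 8C-only bins. Chromosome 18 had the highest kept share, 17.6%. Chromosome 25 had the most marked bins of all, 14.3% of its bins, and chromosome 28 the fewest, 5.91%.

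The longest runs show single places, with coordinates on ARS-UCD1.2 and no gene names, because no annotation of that build was at hand. The longest 8A-only run lay on chromosome 19 from 9285001 to 9314000, 29 kb, with 97.1% and 98.3% of its bases covered in 8A and none in 8C. Of its 29 bins, H3K4me3 marked 21 in both 8C lists and 20 in both 4C lists, and H3K27ac marked 18 in both 4C lists and 11 in both 2C lists. H3K27me3 marked none at 8C, 14 at MO and 17 at BL. The next was on chromosome 25 from 894001 to 912000, where 17 of 18 bins had H3K27ac in both 2C lists and 18 of 18 H3K27me3 in both BL lists. The other 3 lay on chromosome 22 (59337001 to 59350000), chromosome 1 (141617001 to 141629000) and chromosome 11 (106014001 to 106026000). In all 5 of these runs no 8C base was covered, and H3K27me3 marked 9 to 18 of their bins in BL.

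The longest 8C-only run was 16 kb on chromosome 5 from 30736001 to 30752000, with 93.8% and 94.7% of its bases covered in 8C and none in 8A. No bin of it had H3K4me3 in both lists of GV, 4C, 8A, 8C or MO, or H3K27ac in both lists of GV, 2C or 4C, and 2 bins had H3K27ac in both MO lists. Those on chromosome 2 (69881001 to 69893000) and chromosome 10 (59850001 to 59862000) had 0 and 1 bins of H3K27ac in both GV lists and none at 2C, 4C or MO. The run on chromosome 10 also had 1 bin with H3K4me3 in both MO lists and 4.17% and 2.08% of its bases covered in 8A. The run on chromosome 11 (98376001 to 98388000) had 7 of 12 bins acetylated in both MO lists, and that on chromosome 13 (79585001 to 79596000) had 4 of 11. In the first 8A list 3.75% of the bases of the chromosome 11 run and 10.9% of those of the chromosome 13 run were covered. The chromosome 11 run had H3K9me3 in 4 bins in both 8A lists and in 2 in both 8C lists. It also had H3K27me3 in 1 bin in both 8A lists. None of these 5 runs held a bin with H3K27me3 in both BL lists.

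The longest kept run was 22 kb on chromosome 6 from 108736001 to 108758000, covered to 94.3% and 91.6% in 8A and to 98.0% and 96.8% in 8C. It had H3K4me3 in 21 bins in both 8C lists and in 17 in both 8A lists, H3K27ac in 10 bins in both 4C lists, and H3K27me3 in all 22 in MO and BL. The others were on chromosome 15 (84860001 to 84876000), chromosome 17 (71000001 to 71015000), chromosome 7 (18056001 to 18070000) and chromosome 18 (55368001 to 55382000). On chromosome 15, 13 of 16 bins also had H3K27me3 and 14 had H3K9me3 in both 8C lists. On chromosome 7, no bin had H3K27me3 in both lists of 8C, MO or BL.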

How the data were processed

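CUT&Tag and ATAC-seq peak lists, 1 per library and 81 in all, were deposited. Per the submitters' processing notes, the build was ARS-UCD1.2, and SAMtools 1.9, SICER, BWA 0.7.9a, Picard 2.26.10, Trim Galore 0.4.0 and cutadapt 1.8.3 were used. The lists are named for epic2, so the caller was not settled, and neither its cutoff nor any control is given in the sources used here. A score the authors deposited with each peak is a whole number of unstated meaning, used here to rank peaks within a list and for the score floor. Peak edges lie on a 50 bp grid for H3K27ac and H3K4me3. Groups and replicate numbers were taken from sample titles. Chromosome lengths were taken as the highest peak end over all lists, 2488 Mb over the autosomes. Peaks were turned into covered bases per 1 kb bin with pandas 2.3.3 and NumPy 2.4.6 under Python 3.11.15. The class code was tested on simulated data. Shares are of bins, with "both" meaning each of the 2 libraries, and bins are not replicates, so no test runs over bins. Exact permutation tests compare libraries. The 5 longest runs of each class and the extreme chromosomes were named by rule. The design also held gene lists, which were not used, because the annotation at hand is of another build. Alternatives were a stricter score threshold, trimmed lists, any covered base, 5 kb bins, X and scaffolds, each library left out, joined peaks and chromosome ends left out, the last 2 chosen after seeing the data. The members and lists were chosen with earlier results of these data known. The lists give no library totals, so precision is read from the 2 libraries.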

Additional observations from a re-analysis of the deposited data

How the results depend on the processing

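In every setting kept sites were narrower in 8A. In every setting H3K27ac at 4C and H3K4me3 at 8C were most frequent in kept bins and least frequent in 8C-only bins, H3K4me3 at 8A was scarcest in 8C-only bins, and H3K27ac at MO was most frequent in kept and least frequent in 8A-only bins. In 5 kb bins H3K4me3 at 8A was more frequent in 8A-only (35.7%) than in kept bins (29.8%). The covered length ratio turned to -0.028 without the last 5 Mb of each autosome; trimming to one length leaves no ratio by construction. Counts of bins moved past 1.5 times with the top 50% of peaks by score (16386 kept) and with any covered base (52160 kept, 67598 8A-only). So did the 8C-only count without either 8C library and the 8A-only count without either 8A library. Counts of 5 kb bins (1893 kept, 4329 8C-only, 3085 8A-only) also moved, but larger bins are not comparable in number. The causes of the other shifts were not tested.

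For kept, 8C-only and 8A-only bins in that order, H3K27ac at 4C was 49.5%, 2.51% and 26.8% with any covered base, 12.1%, 0.0924% and 4.12% in 5 kb bins, and 33.1%, 0.812% and 14.8% with peaks under 1 kb apart joined. At MO it was 41.9%, 29.04% and 11.1% with any covered base and 25.2%, 22.2% and 5.64% in 5 kb bins. With X and scaffolds added, 4C was 0.834% in 8C-only and MO 38.6% in kept bins. With the top 50% of peaks, 4C was 0.849% in 8C-only and 14.6% in 8A-only bins, and MO 40.8% in kept and 8.61% in 8A-only bins. Trimmed lists gave 39.4% at MO in kept bins. H3K4me3 at 8A was 46.2% in kept and 36.4% in 8A-only bins with any covered base, and 1.29% in 8C-only bins at 5 kb. Without the last 5 Mb, H3K4me3 at 8A was 24.1% in 8A-only bins and MO 40.1% in kept and 10.3% in 8A-only bins.

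With single libraries left out, the covered length ratio ran from 0.12 to 0.16, the width ratio from -0.46 to -0.19, and kept bins from 29714 to 30345. The 8C-only bins ran from 33423 to 51040 and the 8A-only bins from 35915 to 56212. In kept, 8C-only and 8A-only bins, H3K4me3 at 8C ran from 55.9% to 76.4%, 7.57% to 17.1% and 30.3% to 64.6%. H3K4me3 at 8A ran from 36.1% to 51.3%, 1.55% to 4.16% and 22.8% to 43.3%. H3K27ac at 4C ran from 23.7% to 44.0%, 0.460% to 3.03% and 7.16% to 25.7%, and at MO from 35.0% to 43.7%, 18.9% to 30.4% and 8.37% to 12.2%.

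With the replicate number as a replicate block, the covered length ratio was 0.14 and the width ratio -0.31, each with an exact sign-flip p of 0.5, the smallest that 2 pairs allow. The numbers did not pair the libraries: the replicate 1 minus replicate 2 differences of 8A and 8C correlated with r = -0.000648 over 204862 bins, which are not independent.

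Peak lists hold no read counts, so depth differences between libraries, which can widen or split peaks, could not be measured, and absence from a list means only that no peak was called at this depth. With 2 libraries a group, no exact test can pass 0.05.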

Other observations

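Peaks at kept sites ranked higher in their own list than peaks of the condition-specific classes. By the authors' deposited score, the median percentile of peaks over kept bins was 84.2 and 80.0 in the 8A libraries and 78.4 and 80.0 in the 8C libraries. Peaks over 8A-only bins had median percentiles of 71.5 and 66.1, and peaks over 8C-only bins 65.5 in each library. Kept peaks were also wider, and the part of width in the score was not tested. Their medians were 900 bp and 1050 bp against 750 bp and 900 bp for 8A-only peaks in 8A, and 1300 bp and 1250 bp against 1050 bp and 1000 bp for 8C-only peaks in 8C.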
